A study of Mus musculus with 12 samples.

Results

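Ligands and receptors of the tumour necrosis factor (TNF) superfamily were followed in mouse neutrophils and macrophages exposed to calcitonin gene-related peptide (CGRP), a neuropeptide that sensory nerve endings release. The 10 genes were taken by name from the count tables of both cell types, out of the 52636 genes that each table lists, and comprise 4 ligands (*Tnf*, *Tnfsf9*, *Tnfsf13b* and *Tnfsf14*) and 6 receptors (*Tnfrsf1a*, *Tnfrsf1b*, *Tnfrsf12a*, *Tnfrsf21*, *Tnfrsf26* and *Ltbr*). The cells came from the bone marrow of C57BL/6J mice aged 8 to 12 weeks, with no genetic change in any group. Neutrophils were used directly after isolation, whereas monocytes were first grown for 3 days with 10 ng/ml M-CSF, the growth factor that turns monocytes into macrophages. The labels name the resulting cells monocyte/macrophage, and they are called macrophages here. Each cell type was then kept for 4 h with saline (PBS) or with 1 nM CGRP, with 3 libraries in each of the 4 groups and 12 in all. No label says whether the libraries of a group came from separate mice, so the p-values measure the spread between these libraries, which may be technical.

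TNF superfamily ligands are trimeric proteins, mostly anchored in the cell membrane, and some, TNF among them, are cut free by a protease. Their receptors recruit adaptor proteins such as the TRAFs, through which they switch on NF-kB and MAP kinases, while receptors that carry a death domain can also start cell death. Macrophages are a major source of TNF in injured tissue, and neutrophils respond to TNF and release ligands of the same family.

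The members were placed on GRCm38 with the GENCODE annotation, and all 10 are protein-coding. Of these, 5 lie on chromosome 17, among them *Tnf* at 35199381-35202007, and *Tnfsf9* and *Tnfsf14* lie 81.7 kb apart there. *Ltbr* and *Tnfrsf1a* lie 35.5 kb apart on chromosome 6. Within the last 500 bases of each member's longest coding transcript, the stretch nearest to where the poly-A primed libraries were read, none of the 470 words of 31 bases occurred in another annotated gene. The start of *Tnfrsf26* (chromosome 7, 143607659-143628722) is overlapped on the opposite strand by *E230032D23Rik*, whose level was 9.45 ± 3.78 CPM in saline and 12.9 ± 2.43 CPM in CGRP macrophages (SD, n = 3). *Gm11110* overlaps the start of *Tnfsf9* in the same way and had at most 21 counts in a library. The strand setting of the counting is not given in the sources used here, so reads of these pairs may not be fully separated.

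The 2 members that differed between CGRP and saline in macrophages were *Tnf* and *Tnfsf14*. The 250 bases before their start sites are printed to show the sequence in front of each. Both stretches are on the minus strand of GRCm38.p6, at chr17:35202008-35202257 for *Tnf* and chr17:57194182-57194431 for *Tnfsf14*, were taken from RefSeq and are written 5′ to 3′. Capitals mark matches to a searched motif.
*Tnf*: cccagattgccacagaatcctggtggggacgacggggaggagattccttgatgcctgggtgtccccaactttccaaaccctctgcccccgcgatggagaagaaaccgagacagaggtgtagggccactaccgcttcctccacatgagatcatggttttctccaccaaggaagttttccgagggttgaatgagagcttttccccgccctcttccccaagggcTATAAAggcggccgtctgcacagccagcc
*Tnfsf14*: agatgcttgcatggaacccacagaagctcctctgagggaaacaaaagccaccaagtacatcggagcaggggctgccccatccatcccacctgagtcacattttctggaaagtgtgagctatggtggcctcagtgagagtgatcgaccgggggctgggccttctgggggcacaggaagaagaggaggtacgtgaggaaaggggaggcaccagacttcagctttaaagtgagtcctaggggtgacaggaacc
Entries were found for 8 of the 10 members. Both strands of the 250 bases were searched for the cAMP response element TGACGTCA, its core TGACG, which every full element also contains, the TATA box TATAAA and the NF-kB consensus site. Of 32851 promoters, 1.55% held the full element, 17.8% the core, 12.4% the TATA box and 7.25% the NF-kB consensus. Among the members, the TATA box of *Tnf*, at -29 to -24 from the start, was the only match, and no match says only that these letters are not in this window.

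*Tnf* mRNA is known for an AU-rich element in its 3′ untranslated region, through which RNA-binding proteins shorten its life and limit its translation. The element is printed as the 27 bases at positions 443 to 469 of the 767-base region, written as DNA, with each ATTTA in capitals.
*Tnf* AU-rich element: ATTTAttATTTATTTAttATTTATTTA
These bases hold 5 copies of ATTTA, some of which overlap. The 9-base form TTATTTATT occurred 5 times in the whole untranslated region of *Tnf* and once in that of *Tnfsf13b*, and in none of the other 8 members. Of 21707 genes, 7.42% carry it at least once.

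Libraries held from 2719556 to 3631989 counts in saline neutrophils, 2196558 to 3270388 in CGRP neutrophils, 2536415 to 3477069 in saline macrophages, and 2002559 to 3259073 in CGRP macrophages. Levels are given as counts per 1e6 counts of the library (CPM), scaled by TMM over the 12 libraries together, and 3 counts, taken as the floor, corresponded to 0.861 to 1.51 CPM. The reads come from the 3′ ends of transcripts, so the levels of the members are compared between groups and not between genes. For the marker lists, the gene with the highest CPM is named as measured. The 12 neutrophil markers summed to 167500 to 241400 CPM in saline neutrophils and to 307 to 399 CPM in saline macrophages. The 12 macrophage or monocyte markers summed to 35690 to 40060 CPM in saline macrophages and to 1971 to 1989 CPM in saline neutrophils. The markers therefore followed the labels. In these bulk samples, fewer cells of a type and less RNA per cell cannot be told apart.

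Before any CGRP effect, saline macrophages were compared with saline neutrophils to order the levels of the members. Cell type, culture medium and the 3 days with M-CSF cannot be told apart in this comparison. Every member differed (10 of 10, limma-voom over 12 libraries, Benjamini-Hochberg adjusted p under 0.05), with 3 higher and 7 lower in macrophages, and for every member the libraries did not overlap. The comparison was broad, since 67.9% of the 10694 genes tested passed (32.5% higher and 35.4% lower) and the libraries of 70.5% did not overlap. The 4 ligands were all lower in macrophages, whereas the receptors were split. *Tnfsf9* and *Tnfsf13b* did not pass the filter on low counts in macrophages alone, so they entered this test through their neutrophil libraries. With at least 10 counts in every library no ligand could be tested, so the count of ligands is not read as a result.

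Among the ligands, *Tnfsf14* encodes LIGHT, which binds the lymphotoxin beta receptor and HVEM, and *Tnfsf13b* encodes BAFF, a survival factor for B cells. *Tnfsf14* was measured at 147, 141 and 119 CPM in the saline neutrophil libraries and at 2.58, 0.300 and 1.44 CPM in the saline macrophage libraries. The log2 difference was -6.76 ± 0.47 (SE), with an adjusted p of 1.38e-11. *Tnfsf13b* stood at 38.9, 28.9 and 33.5 CPM in saline neutrophils, against 0.287, 0.899 and 0.719 CPM in saline macrophages, where each library held 1 to 3 counts. *Tnfsf13b* in macrophages was thus at or under the floor. *Tnf* itself was at 15.0 ± 2.16 CPM in saline neutrophils and 4.79 ± 1.82 CPM in saline macrophages, a log2 difference of -1.64 (adjusted p = 2.96e-05). *Tnfsf9*, which encodes the ligand of the T cell receptor CD137, was at 8.59 ± 2.22 and 2.51 ± 1.24 CPM, a log2 difference of -1.79 (adjusted p = 0.000694).

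Of the receptors, *Tnfrsf1a* encodes TNFR1, the death domain receptor of TNF, and *Tnfrsf1b* encodes TNFR2, which lacks a death domain. They differed in opposite directions. *Tnfrsf1a* was at 157, 179 and 176 CPM in saline neutrophils and at 76.9, 59.6 and 81.6 CPM in saline macrophages, a log2 difference of -1.24 ± 0.14 (adjusted p = 4.41e-08). *Tnfrsf1b* was at 98.0, 90.2 and 106 CPM in saline neutrophils and at 176, 142 and 222 CPM in saline macrophages, a log2 difference of 0.85 ± 0.16 (adjusted p = 6.64e-05). *Tnfrsf12a*, which encodes the TWEAK receptor Fn14, was also higher in macrophages (6.24 ± 1.15 and 18.6 ± 3.59 CPM, log2 difference 1.58, adjusted p = 0.000137), as was *Ltbr*, the lymphotoxin beta receptor gene (41.7 ± 6.95 and 60.1 ± 4.49 CPM, log2 difference 0.54, adjusted p = 0.00323). *Tnfrsf21*, which encodes the death domain receptor DR6, was lower (89.7 ± 2.61 and 36.5 ± 6.09 CPM, log2 difference -1.32). *Tnfrsf26*, a mouse receptor gene of the same family as the decoy receptors of TRAIL, was lower as well (18.8 ± 2.50 and 5.44 ± 1.34 CPM, log2 difference -1.79).

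**Figure D1:**
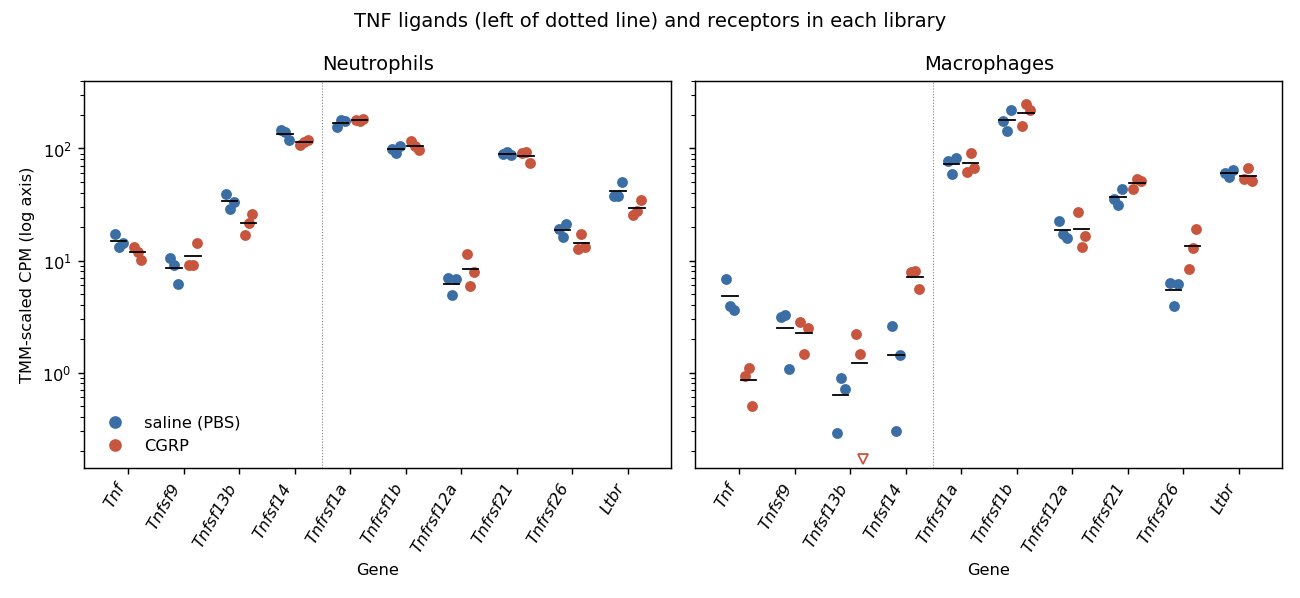
Level of each member in each library, as TMM-scaled CPM on a log axis, for neutrophils (left panel) and macrophages (right panel), with saline in blue, CGRP in red and black lines for the means of 3 libraries. The open triangle at the lower edge stands for the CGRP macrophage library with 0 counts of *Tnfsf13b*; the 4 ligands stand lower in macrophages, and *Tnf* and *Tnfsf14* show the 2 widest gaps between saline and CGRP there among the members tested.

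**Figure D2:**
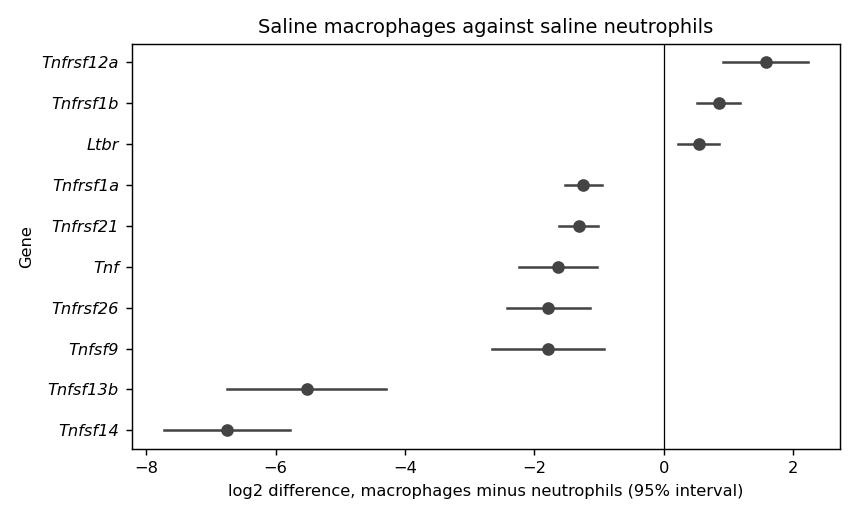
Log2 difference of each member between saline macrophages and saline neutrophils, with bars for the 95% interval from the 12-library fit. The 3 receptors at the top were higher in macrophages, and the 7 other members were lower, down to -6.76 for *Tnfsf14*.

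In macrophages, *Tnf* was lower and *Tnfsf14* higher after 4 h with CGRP than with saline. Of the 10 members, 8 passed the filter on low counts and 2 of these passed the test (limma-voom on the 6 macrophage libraries, adjusted p under 0.05), 1 higher and 1 lower. Across all 9393 genes tested in macrophages, 7.43% passed, 3.46% higher and 3.97% lower. *Tnfsf9* and *Tnfsf13b* did not pass the filter. *Tnf* passed it through the saline libraries alone and *Tnfsf14* through the CGRP libraries alone, so the share of members that passed the test is not read as a result. The median log2 fold change over the 8 members was 0.112, against 0.00465 over all genes tested.

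*Tnf* was counted 24, 13 and 10 times in the saline macrophage libraries and 3, 3 and 1 times in the CGRP libraries. On the CPM scale the saline libraries stood at 6.89, 3.90 and 3.596 and the CGRP libraries at 0.940, 1.11 and 0.503. Every CGRP library lay below every saline library and held no more than the 3 counts of the floor. The log2 fold change was -2.24 ± 0.53 (SE) with an adjusted p of 0.0149. The summed counts, 7 against 47, gave a ratio of 0.181 after scaling for depth, with a 95% exact (Clopper-Pearson) interval of 0.0692 to 0.404 that covers counting error only. All 8 alternatives in which the gene could be tested kept the call. It was lost without saline library 1 (adjusted p = 0.135), CGRP library 1 (0.101), CGRP library 2 (0.111) or CGRP library 3 (0.121), by limma-voom on the remaining 5 libraries, and the log2 fold change then lay between -2.39 and -1.91.

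*Tnfsf14* moved the other way. It was counted 9, 1 and 4 times in the saline macrophage libraries and 25, 22 and 11 times in the CGRP libraries, which is 2.58, 0.300 and 1.44 CPM with saline and 7.84, 8.13 and 5.53 CPM with CGRP. The lowest CGRP library stood above the highest saline library. The log2 fold change was 2.57 ± 0.56 with an adjusted p of 0.00949, and the ratio of the summed counts, 58 against 14, was 5.05 (interval 2.78 to 9.80). The call was lost in counts thinned to the smallest library (log2 fold change 1.98, limma-voom adjusted p = 0.0598) and without saline library 2, which held the single count (1.79, adjusted p = 0.0594). Saline macrophages held 1.06% of the *Tnfsf14* level of saline neutrophils and CGRP macrophages 5.28%. The summed neutrophil markers in the same libraries were 0.174% and 0.217% of the level in saline neutrophils, at 348 and 434 CPM. None of the 9 neutrophil markers tested in macrophages passed the test, although the sums of the groups did not overlap (307 to 399 and 423 to 450 CPM). All 9 had log2 fold changes above 0, from 0.18 for *Csf3r* to 0.56 for *Lcn2*. *S100a8* had the highest CPM of the 12, with a mean of 154.5 over the macrophage libraries, and none was at 0. The part of neutrophil RNA in the change of *Tnfsf14* was not tested.

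The receptors of TNF itself did not pass the test in macrophages. *Tnfrsf1a* averaged 72.7 ± 11.6 CPM in saline libraries and 73.5 ± 15.98 CPM with CGRP, which gave a log2 difference of 0.01 with a 95% interval of -0.36 to 0.39. *Tnfrsf1b* was at 180 ± 39.9 and 208 ± 46.1 CPM (0.21, interval -0.18 to 0.60). *Ltbr*, a receptor of LIGHT, was at 60.1 ± 4.49 and 57.3 ± 8.68 CPM (-0.07, interval -0.40 to 0.27), and *Tnfrsf12a* at 18.6 ± 3.59 and 19.0 ± 7.12 CPM (0.0040, interval -0.56 to 0.57). For these 4 receptors the libraries of both treatments overlapped.

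The other 2 receptors had higher values with CGRP in every macrophage library but missed the threshold. *Tnfrsf26* was at 6.31, 3.90 and 6.11 CPM with saline and at 8.46, 12.9 and 19.1 CPM with CGRP, and the log2 difference was 1.19 ± 0.35 (limma-voom adjusted p = 0.0511). It passed in 7 of 10 alternatives, among them edgeR (adjusted p = 0.0320) and DESeq2 (adjusted p = 0.0291). *Tnfrsf21* was at 35.3, 31.2 and 43.2 CPM with saline and at 43.6, 53.9 and 51.3 CPM with CGRP (0.45 ± 0.18, adjusted p = 0.151). It passed in 1 of 10 alternatives, with library quality weights (0.52, adjusted p = 0.0284). With *Tnfsf14*, 3 of the 8 members tested were higher without overlap, and *Tnf* was the 1 that was lower. Among all genes tested in macrophages, 11.6% were higher without overlap and 12.5% lower. *Tnf* and *Tnfsf14* had each passed the filter through the group where they were higher, so this count is not read as a result. The 2 ligands under the filter were at 2.51 ± 1.24 and 2.27 ± 0.704 CPM (*Tnfsf9*) and at 0.635 ± 0.315 and 1.22 ± 1.119 CPM (*Tnfsf13b*) with saline and CGRP, and no fold is given for *Tnfsf13b*, which was near the floor in both groups.

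**Figure D3:**
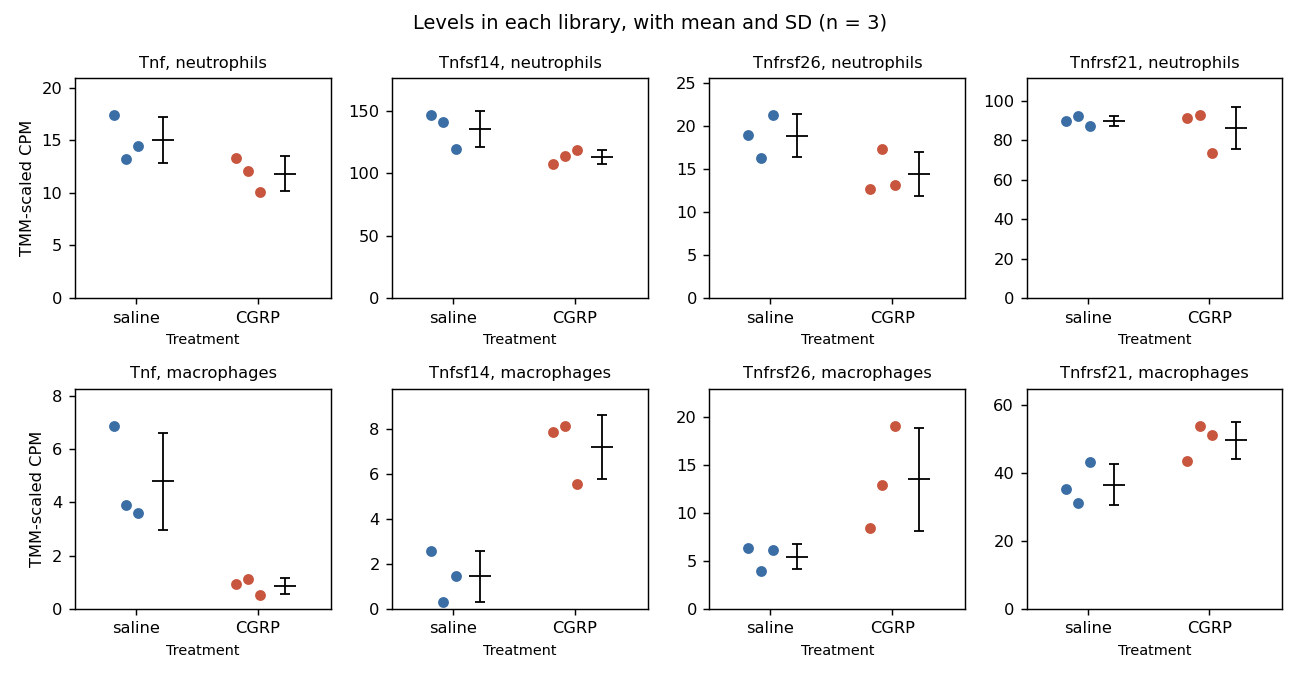
TMM-scaled CPM of *Tnf*, *Tnfsf14*, *Tnfrsf26* and *Tnfrsf21* in each library (points) with the mean and SD of 3 libraries (black), neutrophils above and macrophages below, each axis from 0. In macrophages the CGRP libraries lie apart from the saline libraries for all 4 genes, below them for *Tnf* and above them for the others.

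In neutrophils, no member passed the test. All 10 were tested, and 0 had an adjusted p under 0.05 in limma-voom on the 6 neutrophil libraries, where 2.53% of the 9819 genes passed, 148 higher and 100 lower. With library totals in place of TMM, 150 genes were higher and 64 lower. At an unadjusted p under 0.05 there were 3 members and 1257 of the 9819 genes, and edgeR and DESeq2 also called 0. The median log2 fold change of the members was -0.145, against 0.000801 over all genes. For 3 members, *Tnfsf13b*, *Ltbr* and *Tnfsf14*, every CGRP library was below every saline library, which held for 9.69% of all genes tested.

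*Tnfsf13b* was at 38.9, 28.9 and 33.5 CPM with saline and at 16.9, 21.7 and 25.9 CPM with CGRP. Its log2 fold change was -0.66 ± 0.18, and its adjusted p of 0.0604 missed the threshold. It passed without saline library 2 (limma-voom adjusted p = 0.04998, log2 fold change -0.79) and without CGRP library 3 (adjusted p = 0.0374, log2 fold change -0.78). *Ltbr* was at 37.9, 37.5 and 49.7 CPM with saline and at 25.7, 27.9 and 34.6 CPM with CGRP (-0.50 ± 0.16, adjusted p = 0.132). *Tnfsf14*, the gene that was higher in CGRP macrophages, was at 147, 141 and 119 CPM with saline and at 107, 114 and 118 CPM with CGRP (-0.25 ± 0.10, adjusted p = 0.277). The highest CGRP library and the lowest saline library of *Tnfsf14* lay less than 1 CPM apart.

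For the other neutrophil members the libraries of both treatments overlapped. *Tnf* was at 17.4, 13.2 and 14.4 CPM with saline and at 13.3, 12.03 and 10.1 CPM with CGRP, and the log2 difference was -0.30 with a 95% interval of -0.76 to 0.15. *Tnfrsf1a* and *Tnfrsf1b* had narrow intervals around log2 fold changes of 0.09 (-0.09 to 0.28) and 0.14 (-0.08 to 0.35). *Tnfsf9* was at 0.29 (-0.29 to 0.86), *Tnfrsf12a* at 0.40 (-0.25 to 1.05), *Tnfrsf21* at -0.04 (-0.27 to 0.19) and *Tnfrsf26* at -0.35 (-0.78 to 0.08).

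**Figure D4:**
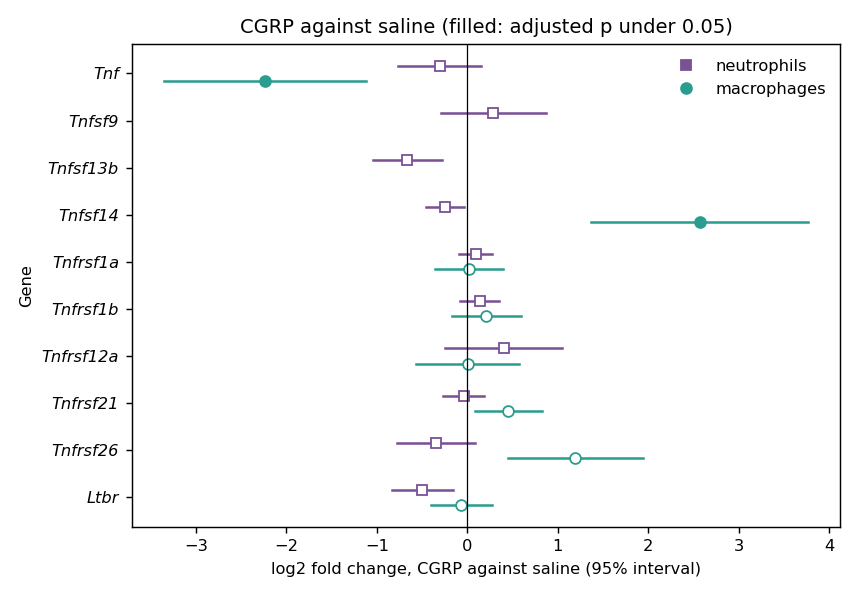
Log2 fold change of each member with CGRP against saline in neutrophils (squares) and macrophages (circles), with bars for the 95% interval and filled symbols for an adjusted p under 0.05. The only filled symbols are *Tnf* at -2.24 and *Tnfsf14* at 2.57 in macrophages, and *Tnfsf9* and *Tnfsf13b* have no macrophage value because they did not pass the filter.

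An interaction term over the 12 libraries tested whether the effect of CGRP differed between macrophages and neutrophils. Of the 10 members, 2 passed, both with a more positive effect in macrophages, where 2.36% of the 10694 genes passed, 1.21% in that direction and 1.15% in the other. With library totals in place of TMM, 88 genes passed in that direction and 154 in the other. For *Tnfsf14* the effect in macrophages exceeded that in neutrophils by 2.83 ± 0.54 on the log2 scale (limma-voom adjusted p = 0.00339). This held in all 8 alternatives in which the gene could be tested and without any of the 12 libraries in turn. For *Tnfrsf26* the difference was 1.54 ± 0.41 (adjusted p = 0.0448), although its effect passed in neither cell type on that cell type's 6 libraries. In the fit over 12 libraries its effect in macrophages passed (1.18, adjusted p = 0.0222). The interaction call of *Tnfrsf26* held in 6 of 9 alternatives and was lost without any 1 of 11 libraries (adjusted p between 0.0503 and 0.143), all but CGRP macrophage library 1. For *Tnf* the difference was -1.89 ± 0.57, which did not pass (adjusted p = 0.0924). It passed in edgeR (adjusted p = 0.0470) and with library quality weights (adjusted p = 0.0340), with a range over its alternatives of 0.0340 to 0.280.

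Across the 4 groups, *Tnf* was highest in saline neutrophils, followed by CGRP neutrophils, saline macrophages and CGRP macrophages, and the 2 neutrophil groups overlapped. *Tnfsf14* was highest in saline neutrophils, followed by CGRP neutrophils, CGRP macrophages and saline macrophages, with no overlap between neighbours. *Tnfsf13b* followed the same order, but its 2 macrophage groups overlapped. *Tnfrsf26* followed it too, and there both neutrophil groups overlapped, and CGRP macrophages overlapped with CGRP neutrophils (8.46 to 19.1 and 12.7 to 17.3 CPM). For *Tnfrsf1b* and *Tnfrsf12a* both macrophage groups stood above both neutrophil groups, and the treatments overlapped within each cell type. *Tnfsf9* and *Tnfrsf1a* showed the reverse, with both neutrophil groups above both macrophage groups. *Tnfrsf21* was highest in the neutrophil groups, which overlapped, followed by CGRP and then saline macrophages. *Ltbr* was highest in the macrophage groups, which overlapped, followed by saline and then CGRP neutrophils.

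The rest of the pathway was described from lists of related genes. Of 14 other TNF superfamily ligands, 2 could be tested in neutrophils and 1 in macrophages. *Ltb*, which encodes lymphotoxin beta, was lower in CGRP neutrophils (79.3 ± 7.14 and 55.7 ± 5.24 CPM, log2 fold change -0.48, limma-voom adjusted p = 0.0282), and the 1 gene tested in macrophages, *Tnfsf12*, did not pass (-0.46, adjusted p = 0.225). In neutrophils, 1.02% of all genes tested passed in that direction. *Ltb* was at 0 or 1 count in every macrophage library. Of 22 other receptors, 9 were tested in neutrophils and 0 passed (2 at an unadjusted p under 0.05, 0 in edgeR and DESeq2). Their median log2 difference was -0.167. In macrophages 7 were tested and 2 were lower, where 3.97% of all genes were. *Cd40*, a co-stimulatory receptor, was at 13.8, 17.7 and 10.4 CPM with saline and at 5.64, 5.91 and 3.52 CPM with CGRP (log2 fold change -1.40 ± 0.34, adjusted p = 0.0169). *Tnfrsf11a*, which encodes RANK, the receptor that drives osteoclast formation, was at 51.4, 40.5 and 59.7 CPM with saline and at 29.5, 28.1 and 28.7 CPM with CGRP (-0.78 ± 0.19, adjusted p = 0.0182). The median of the 7 was 0.303, opposite in sign to the 2 that passed.

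*Ltb* kept its call without CGRP library 1 and lost it without any other neutrophil library (adjusted p 0.0518 to 0.155), with library totals in place of TMM (0.143) and in the single fit over 12 libraries (0.0797). *Cd40* lost it without saline library 1 or 2 or CGRP library 2 or 3 (0.0544 to 0.0705), and *Tnfrsf11a* without saline library 1 or CGRP library 2 or 3 (0.0608 to 0.0973).

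Among 32 receptor adaptors and signalling proteins, 31 were tested in each cell type. In neutrophils 2 were higher, where 1.51% of all genes were, and the list's median log2 fold change was 0.106. *Traf1*, an adaptor that NF-kB itself induces, was at 3.48, 3.99 and 8.29 CPM with saline and at 15.3, 12.03 and 9.65 CPM with CGRP (1.36 ± 0.32, limma-voom adjusted p = 0.0229). *Tnip3*, an inhibitor of NF-kB signalling, was at 6.96, 8.59 and 11.2 CPM with saline and at 16.6, 15.8 and 15.8 CPM with CGRP (0.90 ± 0.23, adjusted p = 0.0437). In macrophages the list's median log2 fold change was -0.00621, and 7.43% of all genes passed, 3.97% of them in the lower direction among all tested. There 1 gene of the list passed in limma-voom (2 in edgeR and 1 in DESeq2). This was *Tnip3*, and it was lower, at 116, 148 and 98.2 CPM with saline and at 85.6, 59.5 and 46.3 CPM with CGRP (-0.91 ± 0.20, adjusted p = 0.0109). *Traf1* went the same way in macrophages as in neutrophils but did not pass there (0.82 ± 0.27, limma-voom adjusted p = 0.0879). The interaction for *Tnip3* was -1.79 ± 0.37 (adjusted p = 0.00690) and passed in all 9 alternatives and without each of the 12 libraries in turn. In neutrophils alone, its call was lost in 6 of 10 alternatives, edgeR and DESeq2 among them (adjusted p = 0.0540 and 0.133), and without any library except saline library 3 (adjusted p 0.0708 to 0.255), and that of *Traf1* without saline or CGRP library 1 or 2 (0.0711 to 0.168). *Traf1* also did not pass in thinned counts (adjusted p = 0.103), and DESeq2 gave it no adjusted p. In macrophages the call of *Tnip3* was lost without CGRP library 2 or 3 (0.0593 to 0.0671).

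NF-kB genes with their subunits and inhibitors numbered 10, and all were tested. In macrophages 4 passed as higher, where 3.46% of all genes did, and none as lower. Of the 10 values, 8 were above 0 and 2 below. The list's median log2 difference was 0.475, against 0.00465 over all genes. *Bcl3*, an atypical inhibitor that acts in the nucleus, was at 5.74, 5.99 and 14.4 CPM with saline and at 16.3, 25.5 and 27.2 CPM with CGRP (1.501 ± 0.33, limma-voom adjusted p = 0.00914). *Nfkb2* and *Relb*, which form the dimer of the non-canonical pathway, had log2 fold changes of 0.91 (adjusted p = 0.00906) and 0.68 (adjusted p = 0.0355), and *Rel*, which encodes c-Rel, of 0.76 (adjusted p = 0.0136). Named after their values were seen, *Nfkb1*, *Rela* and *Nfkbia*, the core of the canonical pathway, were at -0.03, 0.27 and 0.06 and did not pass. *Nfkbiz*, named in the same way, was at 7.55 to 8.99 CPM with saline and lower, at 4.53 to 5.64 CPM, with CGRP. It did not pass either. In neutrophils only *Nfkb2* passed, with levels of 27.9 ± 2.38 CPM (saline) and 41.7 ± 1.84 CPM (CGRP) (0.60, adjusted p = 0.0258), and the list's median was 0.123. For the interaction, 0 of the 10 passed in limma-voom, edgeR or DESeq2, so a difference between the cell types was not shown. At an unadjusted p under 0.05 there were 3 of the 10, and 1416 of all 10694 genes tested.

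The calls of *Nfkb2* and *Bcl3* in macrophages were lost without saline library 1 or CGRP library 2 (adjusted p 0.0503 to 0.0852), that of *Rel* without saline library 1 or 2 or CGRP library 2 (0.0568 to 0.0826) and that of *Relb* without saline library 1 or 2 or CGRP library 2 or 3 (0.110 to 0.179). *Relb* also did not pass in DESeq2 (0.0545), with library totals (0.0872), without a filter (0.0509) or in thinned counts (0.160), and *Rel* did not pass in thinned counts (0.0598). In neutrophils, *Nfkb2* lost its call without any 1 of the 6 libraries (0.0503 to 0.188), in DESeq2 (0.0707), without a filter (0.0529) and in the single fit over 12 libraries (0.138).

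**Figure D5:**
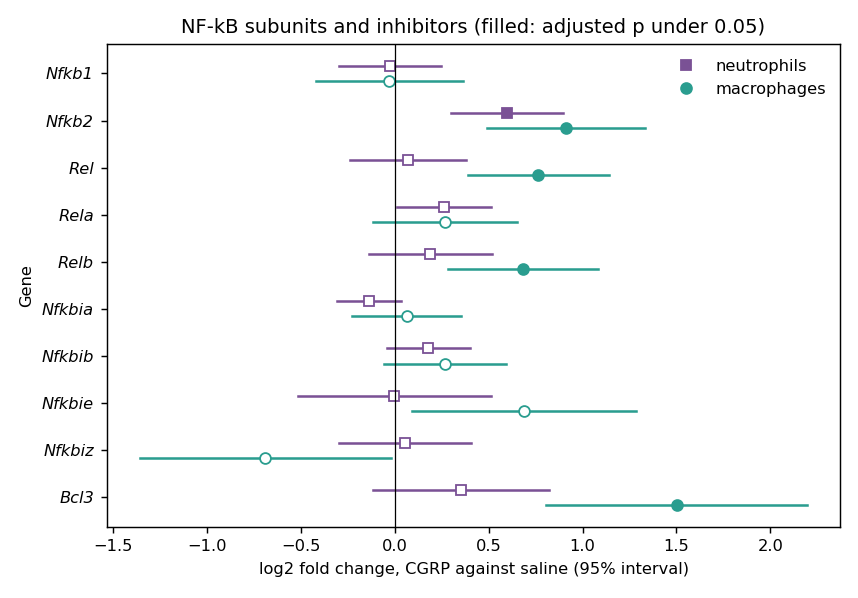
Log2 fold change with CGRP against saline of 10 NF-kB subunits and inhibitors in neutrophils (squares) and macrophages (circles), with bars for the 95% interval and filled symbols for an adjusted p under 0.05. Filled symbols stand at *Nfkb2* in both cell types and at *Rel*, *Relb* and *Bcl3* in macrophages.

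The genes that act on TNF after transcription showed no call in either cell type. Of 7 genes for the shedding of TNF, 6 were tested in neutrophils and 5 in macrophages. *Adam17*, which encodes the protease that frees TNF from the membrane, had log2 fold changes of -0.07 (limma-voom adjusted p = 0.889) and -0.25 (adjusted p = 0.397). Of 13 genes for the stability and translation of *Tnf* mRNA, all were tested, with medians of -0.0555 in neutrophils and 0.220 in macrophages. *Zfp36*, which encodes the protein TTP that binds the AU-rich element printed above, was at -0.05 (adjusted p = 0.879) and 0.22 (adjusted p = 0.425). At an unadjusted p under 0.05 there were 0 genes of either list in neutrophils, and in macrophages 1 of the shedding list and 3 of the stability list. Among all genes tested in macrophages, 1860 of 9393 had an unadjusted p under 0.05, so these counts are not read as a result. edgeR and DESeq2 called 0 in both.

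The genes whose pattern over the 12 libraries was most like that of each called member were found by the root mean square difference of log2 CPM, centred on each gene's mean, among 10693 genes. For *Tnf*, whose own log2 CPM ranged over 3.94, they were *Rnase6* (0.255), *Sla* (0.318) and *Fignl1* (0.332). Their log2 fold changes in macrophages were -1.64, -1.42 and -1.36. The choice of these genes used the same libraries, so these values describe the likeness and are given with no test. For *Tnfsf14*, with a range of 7.24, they were *Mtus1* (0.488), *Trem1* (0.527) and *Rab44* (0.538). *Mtus1* was at 4.498 ± 1.04 CPM in saline and 15.9 ± 2.58 CPM in CGRP macrophages, against 173 ± 7.83 CPM in saline neutrophils. *Trem1*, a receptor that amplifies inflammatory signals, was counted 8 times in all in saline macrophages and 31 times in CGRP macrophages, and did not pass the filter there, nor did *Rab44*. In neutrophils *Trem1* averaged 91.5 ± 3.13 CPM (saline) and 157 ± 8.49 CPM (CGRP), and its log2 difference was 0.80, against -0.25 for *Tnfsf14*.

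Markers of other cell types were followed in the same libraries. In macrophages, the macrophage or monocyte markers summed to 44390 to 50900 CPM with CGRP, above the saline range, and 1 of the 12 passed, *Apoe*, which had the highest CPM at a mean of 29300 (log2 fold change 0.46, limma-voom adjusted p = 0.0263). The 5 dendritic cell markers summed to 14.7 to 16.2 CPM with saline and 20.7 to 31.2 CPM with CGRP, with the highest CPM, 15.0, for *Ccr7* and *Xcr1* at 0. The 6 B cell markers summed to 31.3 to 33.6 and 37.6 to 40.6 CPM, of which *Cd79b* made 35.0 CPM while *Cd79a*, *Ms4a1* and *Pax5* were at 0. Only 2 of the dendritic cell markers and 1 of the B cell markers could be tested, and none of them passed. The part of these shifts in the changes of *Tnf* and *Tnfsf14* was not tested. The 7 T or NK cell markers summed to at most 1.57 CPM in a macrophage library, and *Pf4*, at 772 CPM, made most of the platelet or megakaryocyte sum, which overlapped between treatments. In neutrophils, the erythroid (5738 to 7363 CPM), basophil or mast cell (958 to 1175 CPM) and eosinophil (564 to 701 CPM) sums overlapped between saline and CGRP. No tested marker of any of the 9 lists passed there.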

How the data were processed

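The authors deposited 2 tables of counts per gene, 1 per cell type, made from poly-A primed 3′ libraries with molecular identifiers. Per the labels and the study's methods, reads were aligned with STAR to GRCm38 and assigned with featureCounts, while the annotation release and strand setting are not given in the sources used here. The members and gene lists were chosen with earlier results of these data known.

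Counts were tested as deposited. CGRP and saline were compared within each cell type on its 6 libraries with limma-voom (limma 3.58.1, edgeR 4.0.16, R 4.3.3) after filterByExpr and TMM scaling, with Benjamini-Hochberg adjustment over all genes tested and a threshold of 0.05. The interaction and the comparison of saline groups used 1 fit over the 12 libraries. The fits were repeated with the quasi-likelihood test of edgeR, with DESeq2 1.42.0, and with other scalings and filters, library quality weights, thinned counts, a replicate block, a single fit over the 12 libraries and each library left out. Named genes were all members, up to 4 list genes that passed per list and cell type, by size of change, the 3 genes nearest to each called member, and genes overlapping a member. *Tnfsf12*, *Nfkb1*, *Rela*, *Nfkbia*, *Nfkbiz*, *Adam17* and *Zfp36* were named after their values were seen.

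On simulated counts with a log2 change of 1, 80.8% of the changed genes were recovered in neutrophils, 68.4% in macrophages, 48.5% for the interaction and 73.2% between the saline groups, and with a change of 2, 96.9%, 100%, 79.6% and 96.9%. The changed genes were drawn at random from those that passed the filter, and each gene started at the same level in all groups. These rates therefore need not hold for genes with few counts, such as *Tnf* and *Tnfsf14* in macrophages. Nor need they hold for genes whose level differs between the cell types. No 2 libraries of a group agreed within sampling noise (chi-square per degree of freedom 2.66 to 10.6). Intervals on counts cover counting error only. The value of 1 B cell marker is not reported here.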

Additional observations from a re-analysis of the deposited data

Results flagged for a closer look

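The effect of CGRP differed between macrophages and neutrophils for 3 genes, 2 members and 1 gene of the lists, by the interaction over 12 libraries in limma-voom. These were 2 of the 10 members and 1 of the 31 adaptor and signalling genes tested, and none of the other lists. Of all 10694 genes tested, 2.36% passed, so the count of 3 is not read as a result. For *Tnfsf14* the effect was higher in macrophages by 2.83 on the log2 scale (adjusted p = 0.00339), with mean levels of 1.44 and 7.17 CPM in saline and CGRP macrophages and 136 and 113 CPM in neutrophils. For *Tnfrsf26* it was higher by 1.54 (adjusted p = 0.0448), with 5.44 and 13.5 CPM in macrophages and 18.8 and 14.4 CPM in neutrophils, but this did not pass in 3 of 9 alternatives or without any 1 of 11 of the 12 libraries (adjusted p 0.0503 to 0.143). For *Tnip3* it differed by -1.79 (adjusted p = 0.00690), with 121 and 63.8 CPM in macrophages and 8.91 and 16.1 CPM in neutrophils.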

How the results depend on the processing

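When a setting was changed, 323 member values kept their direction and side of the threshold, 11 turned sign, 10 newly passed and 4 no longer passed. When a library was left out, these numbers were 318, 11, 3 and 16. The number of members called in macrophages, 2, became 3 in edgeR, in DESeq2, without a filter and in the single fit (with *Tnfrsf26* each time), 1 with at least 10 counts in every library, where neither *Tnf* nor *Tnfsf14* was tested and *Tnfrsf26* was the 1 called, 4 with library quality weights and 0 in thinned counts, where *Tnf* could not be tested, and lay between 1 and 2 when 1 library was left out. In neutrophils it lay between 0 and 1 without 1 library. For the interaction, 2 members became 1 with library totals, without a filter, in thinned counts (*Tnfsf14* each time) and with at least 10 counts in every library (*Tnfrsf26*, with *Tnfsf14* not tested), became 3 with edgeR and with quality weights, and lay between 1 and 2 without 1 library. Between the saline groups, 10 became 6 with at least 10 counts in every library, where only 6 were tested.

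The sign turned for values near 0, and the cause was not tested. *Tnfrsf21* in neutrophils was 0.017 with library totals and -0.11 to 0.045 without 1 library. In macrophages *Tnfrsf1a* was -0.034 with library totals, -0.10 in thinned counts and -0.16 to 0.14 without 1 library, and *Ltbr* was -0.19 to 0.0011 without 1 library. *Tnfrsf12a* in macrophages was -0.043 with library totals, -0.0052 without a filter, -0.011 with at least 10 counts, -0.30 with quality weights, -0.013 in thinned counts and -0.33 to 0.25 without 1 library. For the interaction, *Tnfrsf1a* was 0.00057 with quality weights, 0.047 in thinned counts and -0.24 to 0.071 without 1 library, and *Tnfrsf1b* was -0.034 with library totals and -0.074 to 0.29 without 1 library.

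Over all genes, 248 calls in neutrophils became 137 in the single fit and 138 to 234 without 1 library. In macrophages 698 became 1406 with quality weights, 1050 in the single fit and 347 to 765 without 1 library. For the interaction 252 became 520 with quality weights and 149 to 328 without 1 library. The counts of *Tnf* and *Tnfsf14* in macrophages, 1 to 25 a library, limit the precision of their fold changes.

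The labels do not say whether same-numbered saline and CGRP libraries share a mouse, so the numbers were not taken as pairs. Deviations of same-numbered libraries had correlations of -0.161 to 0.209 in macrophages and -0.0312 to 0.0985 in neutrophils. Closest to their own number were 3 of 6 and 2 of 6 libraries. With 3 libraries a group, these values cannot tell whether the libraries are paired. With the replicate block, 254 genes and 0 members passed in neutrophils, 905 genes and 3 members in macrophages, among them *Tnfrsf26* (limma-voom adjusted p = 0.00929), 288 genes and 2 members for the interaction, and 7369 genes and 10 members between the saline groups.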
